A study of Homo sapiens with 3 samples.

Results

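Genes that detect DNA damage, halt the cell cycle and repair the lesion were measured in FaDu, a hypopharyngeal squamous carcinoma line in long use, grown with or without an extract of greater celandine. The set was given as 50 gene symbols, and every probe set that named exactly 1 gene, that gene being one of them, was taken. This gave 121 probe sets for 46 genes, of 44994 probe sets for 18132 genes in all. BRCA2, FANCA, FANCD2 and ERCC5 had no such probe set, so their signal was not analysed here. Total RNA had been hybridised to 3 PrimeView expression arrays. Cells of the 2 untreated arrays had received water, and cells of the 1 treated array had received NSC-631570 at 10 µg/ml. All cells were of the same line in RPMI medium with fetal calf serum, and both treatments lasted 48 h. No other line and no other dose was used here. The study asked how the extract alters gene expression in this line. The labels do not say whether the untreated arrays came from separate cultures, so the p-values may rest on technical variation alone, and the treated condition has no replicate of its own.

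Cells answer a broken or distorted DNA strand with kinases that mark the lesion and stop the cycle, and with separate pathways that mend it. Double-strand breaks are rejoined by end joining or copied back from the sister chromatid by homologous recombination. Fanconi anaemia proteins open crosslinks, mismatch repair corrects copying errors, nucleotide excision removes bulky adducts, and base excision removes single damaged bases. Many of these genes are transcribed most strongly in late G1 and S phase. Because the pathways act largely through protein modification, a mRNA level is not a measure of repair activity.

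Values are log2 signals as deposited, and a gene is represented by its brightest probe set over the 3 arrays. Signals of different probe sets are not comparable as levels, so each gene is compared only with itself. A gene was tested if its mean reached 5.85, the 40th percentile of all probe sets. This left 11932 genes, and 45 of the 46 repair genes. BRIP1, with a mean of 6.29, was the repair gene just inside this limit, and PMS2, at 4.67 and 4.68 untreated and 3.65 treated, was the only one outside. Squamous epithelial markers past the limit were 7 of 7 measured, between 9.05 and 13.48 in the untreated arrays. Untreated values ran from 3.50 to 6.21 for fibroblast markers, 3.72 to 8.55 for leukocyte markers and 5.41 to 7.79 for endothelial markers. Of the measured markers of other cell types, 2 of 6 for fibroblasts, 3 of 4 for leukocytes and 3 of 4 for endothelium were past the limit. The highest of these was the leukocyte marker CD68, at 7.61 and 8.55 untreated and 9.53 treated, and its part in the results was not tested. Along control transcripts the treated array differed. The 5′ probe set of ACTB was 1.37 lower on the log2 scale than the untreated mean and its 3′ probe set 0.20 higher.

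No repair gene rose or fell by the test over all genes. The lowest adjusted p among them was 0.262 (limma with Benjamini-Hochberg adjustment), and 0 of 45 passed the threshold of 0.05, where 8 of all tested genes, 0.067%, did (0.0419% higher and 0.0251% lower). At an unadjusted p under 0.05, limma counted 3 repair genes, H2AX, ERCC1 and LIG3, which is 6.67% of those tested, against 14.4% of all tested genes. ERCC1 was the one on the high side, where 12.2% of all tested genes were, and H2AX and LIG3 were on the low side, where 2.25% were. The treated array lay above both untreated arrays for 18 repair genes (40%), below both for 18 (40%) and between them for 9. Over all tested genes 51.7% lay above both, 22.5% below both and 25.9% between. The median log2 difference from the untreated mean was −0.019 for the repair genes and 0.12 for all tested genes. The repair genes thus held more members below and fewer above than the background, without a test of that difference. The split moved with the scaling of the arrays: when the medians of the tested genes were set equal, 8 repair genes lay above both untreated arrays and 29 below, beside 28.4% and 46.4% of all tested genes. When the medians of all probe sets were set equal, 21 lay above and 16 below, beside 57.6% and 18% of all tested genes. The median size of a difference, sign left aside, was 0.21 for the repair genes and 0.21 for all tested genes, and the median gap between the untreated arrays was 0.16 and 0.18.

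**Figure D1:**
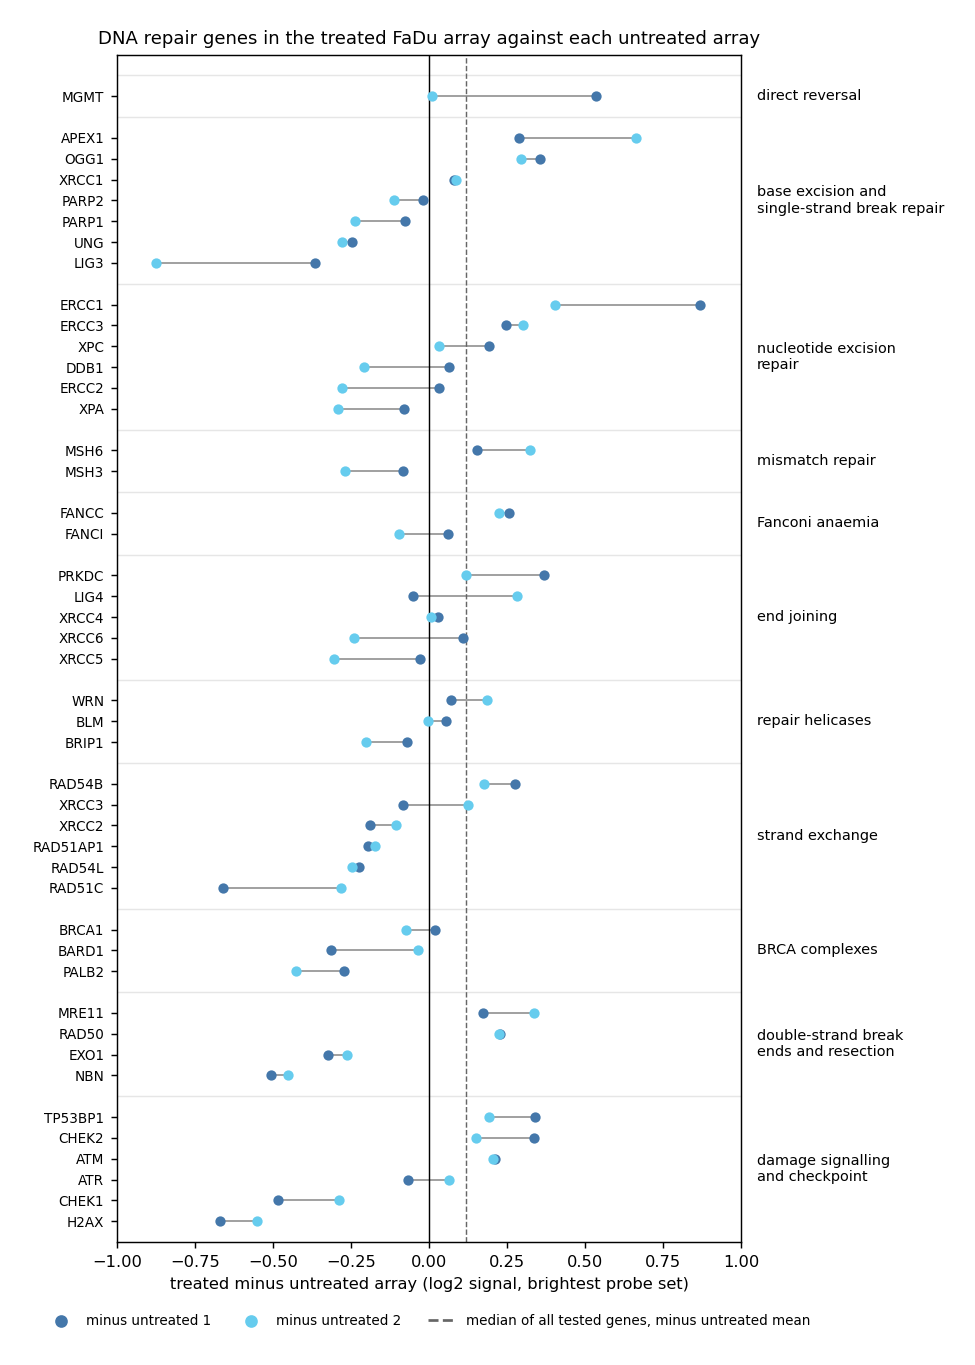
Treated minus untreated log2 signal of the brightest probe set of 45 repair genes, grouped by pathway. Each gene has a point against untreated 1 and a point against untreated 2; the solid line marks no difference and the dashed line the median of all tested genes, 0.12. The treated array lies on one side of both untreated arrays for 18 genes in each direction, and H2AX, LIG3 and ERCC1 have mean differences of −0.61, −0.62 and 0.64.

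Among the genes that signal damage, H2AX and CHEK1 lay below both untreated arrays and ATM, CHEK2 and TP53BP1 above both. H2AX encodes the histone variant that is phosphorylated in chromatin around a break. Its single probe set read 13.02 and 12.90 untreated and 12.35 treated. The treated value was 0.55 below the lower untreated one, a distance several times the untreated gap of 0.12, and the difference from their mean was −0.61 ± 0.22 (standard error of the limma fit, n = 2 untreated and 1 treated), 1.53-fold. CHEK1, the kinase that relays stalled forks to the cell cycle, read 9.96 and 9.76 untreated and 9.47 treated. Its difference of −0.39 was about the same on the next most negative of its other 5 probe sets, −0.33, and −0.015 on the least negative. All 6 were below the untreated mean, but not all lay below both arrays.

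The kinase ATM, which is activated by breaks, read 8.45 and 8.46 untreated and 8.67 treated. Its 3 other probe sets past the limit stood between −0.42 and 0.26, and 1 below the limit at −0.26, so the direction depended on the probe set. TP53BP1, an adaptor that favours end joining, read 7.37 and 7.52 untreated and 7.71 treated, and its other probe sets ranged from −0.71 to 0.04. CHEK2, the kinase downstream of ATM, read 8.80 and 8.98 untreated and 9.13 treated, while its other probe set read 6.03 and 6.05 untreated and 6.02 treated, just below both. ATR, the kinase for single-stranded DNA, read 9.56 and 9.43 untreated and 9.50 treated, between the untreated arrays.

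In the complex that binds broken ends, NBN lay on the opposite side from its partners on their brightest probe sets. NBN, which links the complex to ATM, read 11.41 and 11.35 untreated and 10.90 treated, a difference of −0.48 ± 0.21. All 5 of its probe sets lay below both untreated arrays. RAD50, the ATPase of the complex, read 10.15 and 10.15 untreated and 10.38 treated, and all 3 of its probe sets lay above both. MRE11, its nuclease, read 9.40 and 9.24 untreated and 9.58 treated on the brightest probe set, while a dimmer one read 7.83 and 7.88 untreated and 7.05 treated. EXO1, a nuclease of long-range resection, read 8.69 and 8.63 untreated and 8.36 treated on its only probe set. On the brightest probe sets none of these differences passed the test (adjusted p from limma 0.363 to 0.717). With each probe set tested by itself, the adjusted p from limma was 0.102 for the dimmer one of MRE11 and at least 0.0556 for those of NBN.

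PALB2 and BARD1 lay below both untreated arrays and BRCA1 between them. PALB2, the bridge between BRCA1 and BRCA2, read 10.31 and 10.47 untreated and 10.04 treated, a difference of −0.35. BARD1, the obligate ligase partner of BRCA1, read 9.61 and 9.33 untreated and 9.30 treated, so that it lay only 0.036 below untreated 2. BRCA1 itself read 9.39 and 9.48 untreated and 9.41 treated on its brightest probe set. Its 3 other probe sets past the limit were lower by 0.71, 0.75 and 0.84 on the log2 scale, each below both untreated arrays. The adjusted p of these 3, with every probe set tested by itself in limma, was 0.0945 to 0.154.

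Among genes of strand exchange, 4 of 6 lay below both untreated arrays, where 22.5% of all tested genes did. RAD51C, a core member of the paralogue complexes, read 11.02 and 10.64 untreated and 10.36 treated, a difference of −0.47 ± 0.24. Its 2 other probe sets past the limit stood at −0.41 and −0.22, also below both untreated arrays. The untreated gap of 0.38 was large beside these differences. RAD54L, the motor protein of strand invasion, read 8.85 and 8.87 untreated and 8.62 treated. RAD51AP1, a cofactor of strand invasion, read 10.80 and 10.77 untreated and 10.60 treated, and its 4 probe sets stood between −0.26 and −0.08. XRCC2 had both probe sets below both untreated arrays, at −0.15 and −0.28. RAD54B, the relative of RAD54L, went the other way, with 8.82 and 8.92 untreated and 9.09 treated. XRCC3 lay between the untreated arrays. The median of the 6 was −0.17, and none passed the test (lowest adjusted p from limma 0.436).

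The helicase genes stood between −0.14 and 0.13 on their brightest probe sets. BLM, which dissolves crossed strands, read 9.69 and 9.75 untreated and 9.74 treated. WRN, its relative with a nuclease domain, read 8.62 and 8.50 untreated and 8.69 treated. BRIP1, the helicase that binds BRCA1, was dim, with 6.27 and 6.40 untreated and 6.20 treated, and its other probe set stood at 0.32.

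End joining genes had a median difference of 0.017. XRCC5 and XRCC6 encode the Ku dimer that caps broken ends. XRCC5 read 12.46 and 12.73 untreated and 12.43 treated, and XRCC6 read 13.57 and 13.91 untreated and 13.67 treated. In both the untreated gap, 0.28 and 0.35, exceeded the difference from the mean. PRKDC, the catalytic kinase recruited by Ku, read 11.21 and 11.46 untreated and 11.58 treated, and 2 of its other probe sets stood at 0.48 and 0.54, but its dimmest read 8.15 and 8.04 untreated and 6.82 treated. LIG4, the ligase of this pathway, read 8.70 and 8.37 untreated and 8.65 treated, between the untreated arrays. XRCC4, the ligase's scaffold, stood at 0.017.

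For the crosslink and mismatch genes few members were measured. FANCC, of the Fanconi core complex, read 7.58 and 7.61 untreated and 7.83 treated, with its other probe sets at −0.06 and −0.35. FANCI, the partner that is ubiquitinated with FANCD2, read 9.90 and 10.06 untreated and 9.96 treated, with another probe set at −0.63. MSH6 recognises single mismatches and MSH3 longer loops. MSH6 read 10.99 and 10.82 untreated and 11.15 treated on its brightest probe set, and 9.11 and 8.95 untreated and 8.41 treated on the other. MSH3 read 8.68 and 8.86 untreated and 8.59 treated, and both its probe sets lay below both untreated arrays. The brightest and the other probe set of MSH6 therefore lay on opposite sides of the untreated arrays.

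In nucleotide excision repair, ERCC1 had a difference about as large as those of H2AX and LIG3, in the other direction. Which of these was largest depended on the scaling, since with equal medians of the tested genes ERCC1 stood at 0.44, H2AX at −0.81 and LIG3 at −0.82. ERCC1, a subunit of the nuclease that cuts on the 5′ side of an adduct, read 9.36 and 9.83 untreated and 10.23 treated, 1.55-fold above the untreated mean. The log2 difference of 0.64 ± 0.26 was larger than the gap between the untreated arrays, 0.47, and its other probe set stood at 0.75. The treated array lay 0.40 above the higher untreated array. ERCC3, a helicase of the transcription factor TFIIH, read 8.19 and 8.14 untreated and 8.44 treated, with its other probe set at −0.27. XPA, which checks the damaged strand, read 8.23 and 8.44 untreated and 8.14 treated. XPC, which finds the distortion, stood at 0.11. ERCC2, the other TFIIH helicase, read 8.44 and 8.75 untreated and 8.47 treated on its brightest probe set. DDB1, the adaptor of the ultraviolet damage ligase, read 10.85 and 11.12 untreated and 10.92 treated on its brightest. Both ERCC2 and DDB1 had another probe set that was called lower by limma when each was tested by itself. The treated values of these probe sets, 5.55 for ERCC2 and 5.36 for DDB1, lay under the signal limit. The share of such calls among probe sets of repair genes was near that among all probe sets. The calls therefore do not show that either gene fell.

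In base excision and single-strand break repair, LIG3, UNG, PARP1 and PARP2 lay below both untreated arrays and APEX1, OGG1 and XRCC1 above both. LIG3, the ligase that works with XRCC1, read 7.83 and 8.34 untreated and 7.46 treated. The difference was −0.62 ± 0.27, beside an untreated gap of 0.51, and its 7 other probe sets, which were below the signal limit, ranged from −0.86 to 0.26. UNG, which removes uracil, read 11.64 and 11.67 untreated and 11.39 treated, and 10.85 and 10.80 untreated against 9.81 treated on its other probe set. APEX1, the main nuclease for sites that lack a base, read 12.17 and 11.79 untreated and 12.45 treated, a difference of 0.48 ± 0.24. OGG1, which removes oxidised guanine, read 8.04 and 8.10 untreated and 8.39 treated, and all 4 of its probe sets past the limit lay above both untreated arrays, between 0.09 and 0.36. PARP1, the main sensor of strand breaks, stood at −0.16, with its 3 other probe sets between −0.03 and 0.15. PARP2 stood at −0.07 and the scaffold XRCC1 at 0.08. MGMT, which takes alkyl groups off guanine, read 9.09 and 9.61 untreated and 9.62 treated, so that it lay 0.011 above untreated 2 and 0.53 above untreated 1. On the brightest probe sets none of these genes passed the test (adjusted p from limma 0.341 to 0.941).

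Promoters of H2AX, LIG3 and APEX1 are shown because these genes are among those with the largest differences and have 1 listed start. ERCC1, with 3 listed starts, is not shown. The windows run from 250 bases before to 50 bases after the start, 5′ to 3′ on the gene's strand, from RefSeq's annotation of GRCh38.p14. Capitals mark CCAAT (the NF-Y box), TNGCGTG (the core bound by the aryl hydrocarbon receptor, AhR) and the E2F forms TTCCCGC and TTGGCGC with TTCGCGC and TTGCCGC, on either strand. Overlapping matches were allowed.
H2AX, chr11:119095416-119095715, minus strand: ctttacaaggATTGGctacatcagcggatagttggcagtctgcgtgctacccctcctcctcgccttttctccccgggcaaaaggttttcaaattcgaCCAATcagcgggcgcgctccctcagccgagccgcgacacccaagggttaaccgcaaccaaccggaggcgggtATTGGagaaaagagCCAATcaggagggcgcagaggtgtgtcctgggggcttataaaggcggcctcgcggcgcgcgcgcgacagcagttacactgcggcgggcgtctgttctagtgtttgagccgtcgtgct
LIG3, chr17:34980262-34980561, plus strand: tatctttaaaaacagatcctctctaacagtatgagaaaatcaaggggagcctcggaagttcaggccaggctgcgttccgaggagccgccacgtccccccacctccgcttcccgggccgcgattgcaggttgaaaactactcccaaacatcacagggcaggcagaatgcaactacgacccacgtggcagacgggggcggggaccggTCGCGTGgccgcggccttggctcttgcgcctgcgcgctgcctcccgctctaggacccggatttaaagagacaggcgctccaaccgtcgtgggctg
APEX1, chr14:20454976-20455275, plus strand: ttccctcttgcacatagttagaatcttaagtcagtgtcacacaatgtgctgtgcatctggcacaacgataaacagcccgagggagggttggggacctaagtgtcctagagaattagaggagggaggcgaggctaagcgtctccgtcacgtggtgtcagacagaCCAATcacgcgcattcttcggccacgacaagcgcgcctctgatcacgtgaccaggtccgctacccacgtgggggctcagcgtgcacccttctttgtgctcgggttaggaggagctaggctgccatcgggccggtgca
The H2AX window held 4 CCAAT boxes, the LIG3 window 1 AhR core and the APEX1 window 1 CCAAT box, and none of the 3 held an E2F form. Of the repair gene symbols 44 had a promoter in the table, with 63 starts. These include PMS2 and the 4 genes without a signal value. An E2F form was in 50.8% of these windows, against 18.8% of 14134 windows of all tested genes and 13% of 35116 windows in the table. It was in 54.5% of the windows of genes above both untreated arrays and in 54.5% of those of genes below both. CCAAT was in 50.8% of the repair gene windows and 35% of those of all tested genes. The AhR core was in 7.94% of the repair gene windows, those of ATR, LIG3, LIG4 and RAD51C, and in 6.91% of those of all tested genes. It was in 0 of 22 windows of genes above both untreated arrays and in 3 of 22 (13.6%) of genes below both. Those 3 windows belong to LIG3 and RAD51C alone, since ATR and LIG4 lay between the untreated arrays. CCAAT was in 50% of the windows of genes above both and in 50% of those of genes below both. A match of letters does not show that a factor binds there.

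Probe sets of the same repair gene could lie on opposite sides of the untreated mean, as they could for genes outside the set. Past the signal limit, 105 probe sets of the 45 genes remained, and 30 genes had several. In 14 of these 30 genes, 46.7%, the probe sets lay on both sides of the untreated mean, against 50.9% of all genes with several probe sets. All probe sets past the limit lay below both untreated arrays in 6 genes, namely NBN, RAD51C, XRCC2, XRCC5, MSH3 and UNG. That is 20% of the 30, against 11.9% of all such genes. All lay above both in RAD50, ERCC1 and OGG1, 10% against 18%. Where probe sets were counted one by one, 56 of 105 (53.3%) lay below both untreated arrays and 31 (29.5%) above both, against 34.5% and 40.7% of all probe sets past the limit. The median difference was −0.12 for the probe sets of repair genes and 0.03 for all.

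With each probe set tested by itself, limma called 3 of the 105 lower and 0 higher, against 2.37% of all probe sets called lower and 0.55% called higher. The share of 2.86% was near the background. The 3 were a dimmer probe set each of DDB1, ERCC2 and PRKDC. That of DDB1 read 8.78 and 8.81 untreated and 5.36 treated, a difference of −3.43 ± 0.22 with an adjusted p of 0.00299. The treated signal lay under the limit of 5.85, so the 10.8-fold ratio is one of signals not shown to be above background. That of ERCC2 read 7.15 and 7.27 untreated and 5.55 treated (−1.66 ± 0.22, adjusted p from limma 0.0136), and its treated value also lay under the limit. The PRKDC probe set named above differed by −1.28 ± 0.22 (adjusted p from limma 0.0296). Dimmer probe sets of NBN and UNG, each lower by 1.02 on the log2 scale, did not pass (adjusted p from limma 0.0556 and 0.0553).

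**Figure D2:**
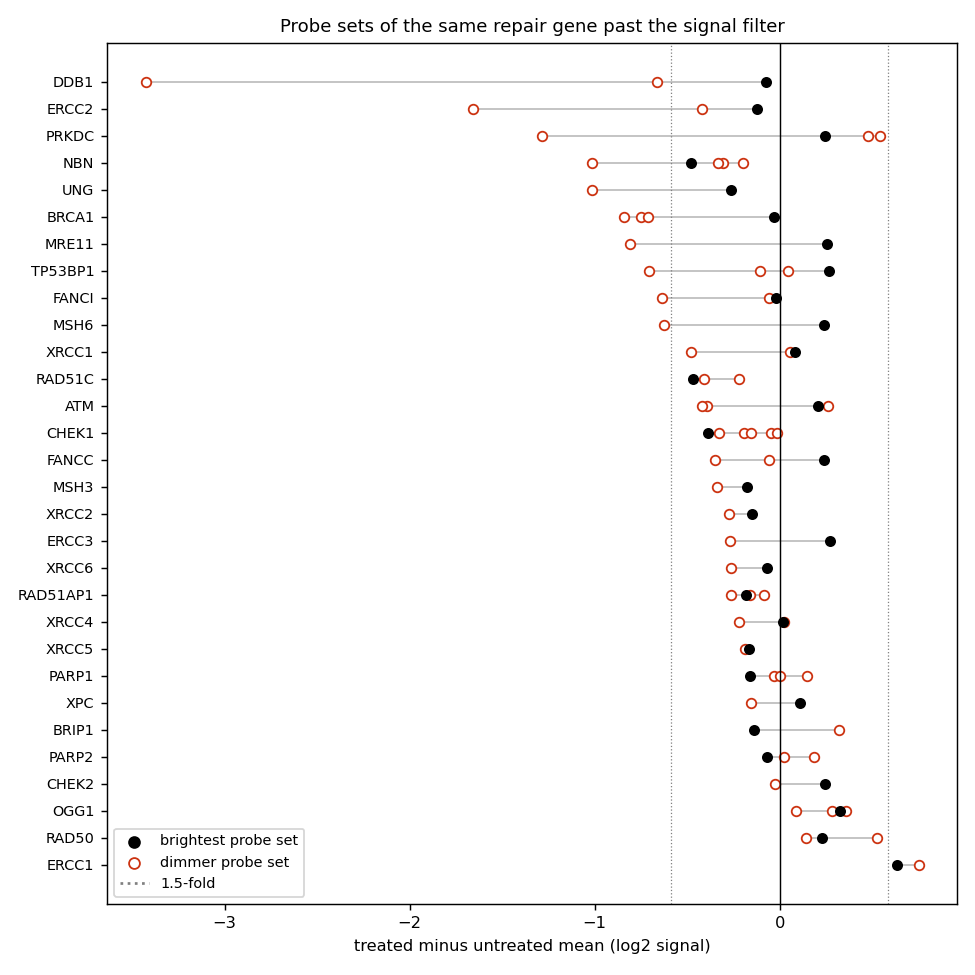
Treated minus untreated mean log2 signal of each probe set past the signal limit, for the 30 repair genes with several. Filled points are the brightest probe set of a gene and open points the dimmer ones; dotted lines mark 1.5-fold. The brightest probe sets lie between −0.48 and 0.64, while dimmer ones of DDB1, ERCC2, PRKDC, NBN and UNG reach −1.02 or lower.

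Among probe sets past the signal limit, values at least 1.5-fold below both untreated arrays were all on dimmer ones. The brightest probe sets of H2AX and LIG3 were 1.53-fold and 1.54-fold below the untreated mean, but less than 1.5-fold below the lower untreated array. At least 1.5-fold below both untreated arrays lay 10 of 60 dimmer probe sets of the repair genes, 16.7%, and 0 of the 45 brightest, so 10 of all 105 did, where 6.77% of all probe sets past the limit did. Over all genes the shares of dimmer and brightest probe sets were 11.1% and 1.23%. None of the 105 lay at least 1.5-fold above both, where 4.15% of all probe sets did. Taken against the brightest probe set of the same gene, 15 of 60 dimmer ones were at least 1.5-fold lower in their difference (25% against 19.7% of all) and 0 were as much higher (2.28% of all). Among the brightest probe sets of the 45 genes 7 had a name ending in x_at and 4 in s_at, which on arrays of this maker can mark probes that match several transcripts. These include the brightest of BRCA1, CHEK1, CHEK2, TP53BP1, OGG1, DDB1, PRKDC and XRCC6, whose values can hold signal from other transcripts.

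**Figure D3:**
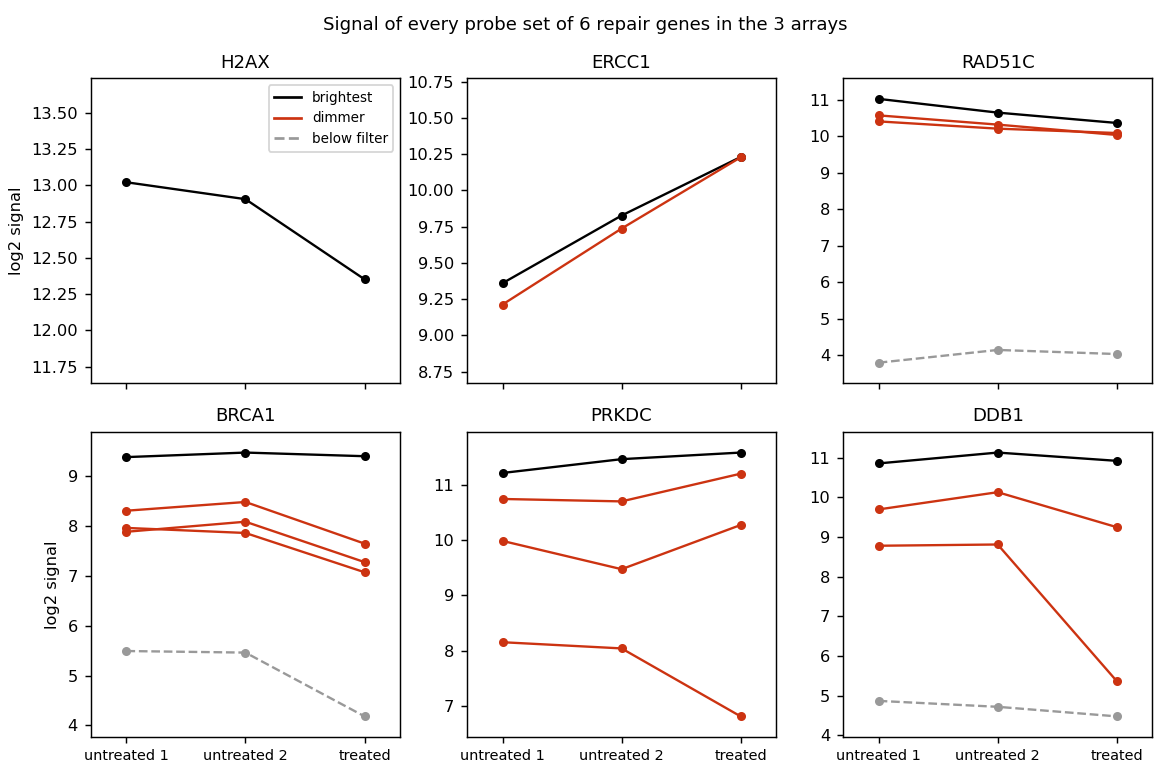
Log2 signal of every probe set of 6 repair genes in untreated 1, untreated 2 and the treated array, with lines joining the values of a probe set (black, brightest; red, dimmer; grey dashed, below the signal limit). The genes were chosen after their values were seen, to show agreement and disagreement. Probe sets of ERCC1 and RAD51C past the signal limit run together, whereas those of BRCA1, PRKDC and DDB1 separate in the treated array. A RAD51C probe set below the limit differs by 0.06. Axes differ between panels.

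The array's own controls differed along the transcript in the same array. For ACTB the 5′ probe set read 13.61 and 13.60 untreated and 12.23 treated, 2.59-fold lower, and the 3′ probe set read 14.19 and 14.21 untreated and 14.40 treated. For GAPDH the 5′ probe set was lower by 0.48 on the log2 scale and the 3′ one by 0.011. The signal at the 5′ end relative to the 3′ end was thus lower in the treated array for both transcripts, by more than the untreated arrays differed. Where in its transcript each repair probe set lies was not used here. The part of this difference in the low repair probe sets was not tested.

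**Figure D4:**
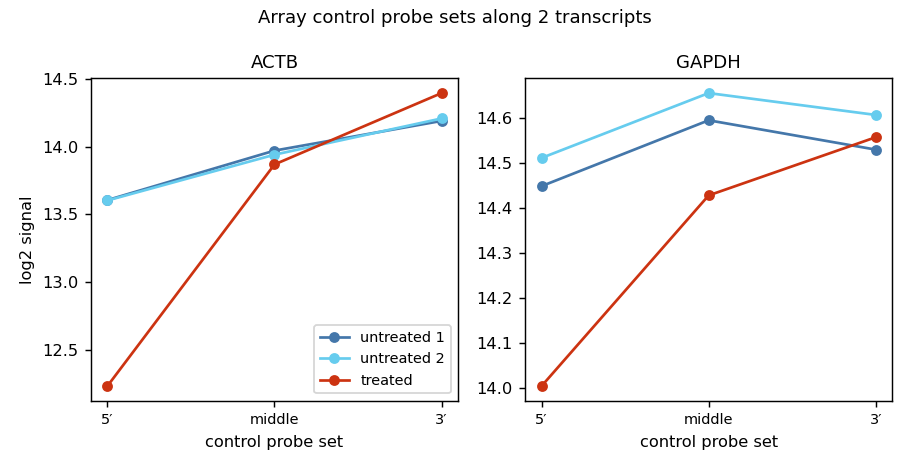
Log2 signal of the 5′, middle and 3′ control probe sets of ACTB and GAPDH in each array; vertical scales differ between panels. The treated array lies below both untreated arrays at both 5′ probe sets, by 1.37 and 0.48 from their mean, and differs from that mean by no more than 0.20 at the 3′ probe sets.

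Repair genes outside the set were taken from 4 further lists, and 71 of their 79 symbols were tested. None passed the test over all genes. Above both untreated arrays lay 38 and below both 18 (53.5% and 25.4%), close to the 51.7% and 22.5% of all tested genes, and their median difference was 0.11. Among further checkpoint genes 6 of 15 lay above and 6 below. TIMELESS and TIPIN, which protect stalled forks together, stood at −0.47 and −0.41, ATRIP, the partner of ATR, at 0.47, and RAD9A, of the checkpoint clamp, at 0.38. Among 25 further genes for breaks and crosslinks 15 lay above both arrays and 3 below. POLL, a gap-filling polymerase of end joining, read 7.22 and 7.53 untreated and 8.34 treated, and MUS81, a nuclease for branched DNA, read 10.12 and 10.77 untreated and 11.37 treated. RAD52, which anneals strands, stood at 0.63, and FANCG, of the Fanconi core complex, at −0.78. Among 25 further excision and mismatch genes 14 lay above and 9 below. ERCC4, the catalytic partner of ERCC1, lay above untreated 1 by 0.96 and above untreated 2 by 0.64, and so above both arrays as ERCC1 did. MPG, a glycosylase for alkylated bases, stood at 0.66, PMS1 at 0.50 and MUTYH at 0.48. Of 6 translesion genes 3 lay above both and none below, with REV3L, the catalytic subunit of polymerase zeta, at 0.60, REV1 at 0.45, POLK at 0.44 and MAD2L2 at −0.08. The adjusted p from limma of the genes named here was 0.147 to 0.931.

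Genes that respond to damage through p53 lay on both sides, in shares close to those of all tested genes. Of 18 tested, 9 lay above both untreated arrays and 4 below (50% and 22.2%), beside 51.7% and 22.5% of all tested genes. Their median was 0.20, beside 0.12 for all tested genes, and none passed the test. CDKN1A, the inhibitor of cyclin-dependent kinases, read 10.35 and 10.37 untreated and 11.15 treated (0.80 ± 0.21, adjusted p from limma 0.169). GADD45A read 12.45 and 13.30 untreated and 11.82 treated (−1.05). SESN2 read 9.74 and 10.93 untreated and 9.73 treated, and TP53I3 stood at 0.60. CDKN1A and TP53I3 had tight untreated pairs, while those of GADD45A and SESN2 were far apart.

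Markers of the cycling cell were measured beside the repair genes. Of 15 S phase genes 5 lay above both untreated arrays and 6 below (33.3% and 40%), with a median of −0.024. Over all tested genes 51.7% lay above both and 22.5% below both. MCM5, of the replicative helicase, read 8.42 and 8.71 untreated and 7.67 treated, and MCM2 stood at −0.43. The cyclin genes CCNE1 and CCNE2 stood at 1.18 and 0.85. Of 7 mitosis genes 5 lay below both and 1 above (71.4% and 14.3%), with a median of −0.12. Those with the largest differences were MKI67 at −0.46, PLK1 at −0.30 and CCNB1 at −0.20, with TOP2A at 0.14. CCNB1 lay only 0.10 below untreated 1. None of these 22 genes passed the test. In bulk RNA, fewer cells in a phase and less RNA per cell cannot be told apart. The part of the cell cycle in the lower values of H2AX, CHEK1 and 4 of the 6 strand exchange genes was not tested.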

How the data were processed

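RNA of FaDu cells was measured on 3 PrimeView arrays from 100 ng of total RNA each, per the labels. Each probe set has 1 deposited log2 signal, which the authors computed in Affymetrix Expression Console according to the submitters' processing notes. The algorithm, version and normalization were not given in the sources used here, and log2 was read from the values, which run from 2.92 to 14.95. Array medians were 6.62 and 6.57 untreated and 6.55 treated. Values were used as deposited. Probe sets were named through the platform annotation. Of 49395, 44994 named 1 gene, 1832 several and 2473 none, beside 96 of the 102 controls, which name none; the other 6 controls name 1 gene and are counted with those.

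The treated array was set against the mean of the untreated ones in limma 3.58.1 under R 4.3.3, and p-values were adjusted by Benjamini-Hochberg over all tested genes. Only 1 residual degree of freedom exists, given by the untreated pair, and it is moderated with 6.95 prior degrees of freedom, and the treated array is assumed to vary alike. The script was tested on simulated data. The number of arrays limits the precision, and no detection calls were used.

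The members, lists and tests were chosen with earlier results of these data known. Values of every array are given for up to 4 members of each pathway with the largest difference, and up to 4 genes are named of each other list. Values named beyond this rule, including those of dimmer probe sets, were chosen after they were seen. Alternatives were other scalings, filters, probe set choices and a prior variance with a trend, and leaving out each untreated array.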

Additional observations from a re-analysis of the deposited data

How the results depend on the processing

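No repair gene passed the limma threshold under any alternative that gives 1 value per gene, where the lowest adjusted p ran from 0.123 to 0.301; with each probe set by itself 3 probe sets passed. The count of calls over all genes, 8, was 4 after quantile normalisation, 136 with a common median over all probe sets, 50 when medians of tested genes were equalised, 4 without a filter, 21 with the filter at the 60th percentile, 3 with probe sets averaged per gene, 795 with each probe set by itself and 31 with a trend in the prior variance. The median difference of the repair genes, −0.019, was 0.024 with a common median over all probe sets, −0.22 with equalised tested-gene medians, and −0.12 both with averaged probe sets and with each by itself; the medians of all genes tested there were 0.16, −0.08, 0.04 and 0.03. With equalised tested-gene medians 8 repair genes lay above both untreated arrays and 29 below, beside 28.4% and 46.4% of all tested genes. With averaged probe sets 44 repair genes were tested, and 10 lay above and 24 below, beside 41.5% and 32.8%. LIG3 was the gene not tested there, so its sign was not judged in that alternative. With a common median over all probe sets 21 lay above and 16 below, beside 57.6% and 18%. With each probe set by itself 31 probe sets lay above and 56 below, beside 40.7% and 34.5% of all probe sets. Leaving out an untreated array gave medians of −0.036 to 0.029, with 21 to 24 repair genes above the remaining array and 21 to 24 below. No test was made there, since no residual degree of freedom was left. The repair gene median was −0.036 without untreated 1, beside 0.13 for all tested genes, and 0.029 without untreated 2, beside 0.11. Choosing the brightest probe set on the untreated arrays alone, added after seeing the data, changed it for 0 repair genes. Of the 45 repair genes, 24 kept their sign in all alternatives that give 1 value per gene and in which they were tested. Those that turned in at least 1 were ATM, ATR, BLM, BRCA1, BRIP1, DDB1, ERCC2, FANCC, FANCI, LIG4, MRE11, MSH6, PARP2, PRKDC, TP53BP1, WRN, XPC, XRCC1, XRCC3, XRCC4 and XRCC6. ATM (−0.12), MRE11 (−0.31), MSH6 (−0.19), TP53BP1 (−0.13), XRCC1 (−0.11), FANCC (−0.056), XPC (−0.021) and PRKDC (−0.0045) turned below the untreated mean when their probe sets were averaged. The cause of these shifts was not tested. No paired analysis was possible because the treated group has 1 array. Depth does not apply to these signals, and detection over background was not measured.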
